A study of Homo sapiens with 56 samples.

Results

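MINO-VR was compared with MINO-P while the proteasome was inhibited. Both are labelled as cultures of MINO, a human cell line of mantle cell lymphoma, a B-cell cancer, and the letters P and VR are not explained in the labels. The comparison took every library of either culture whose treatment was BTZ (bortezomib alone), BTZ_CLF (bortezomib with CLF) or BTZ_YM155 (bortezomib with YM155) and that had a partner of the other culture. That gave 3 MINO-VR and 3 MINO-P libraries, 6 of the 56 libraries of poly-A RNA-seq in the series. Each culture had 1 library per treatment, so the 3 treatments served as the 3 pairs, and all 6 libraries had received bortezomib. The labels state no dose or time, CLF is used as the labels write it, and YM155 is a compound made to lower survivin, the product of BIRC5. A further 6 libraries gave the same cultures and partner drugs without bortezomib: CON (untreated), CLF and YM155. The question is which genes separate the cultures when proteasomes are blocked.

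The proteasome degrades proteins marked with ubiquitin. When bortezomib blocks its catalytic core, unfolded proteins accumulate in the cytosol and the endoplasmic reticulum, heat shock factor induces chaperones of the HSP70 and HSP40 families, the unfolded protein response induces reticulum chaperones, and stress kinases induce immediate early transcription factors such as FOS and JUN. The drug also slows the breakdown of the NF-kB inhibitor IkB and stabilises NOXA, the pro-apoptotic product of PMAIP1. Lymphoma cells are sensitive to proteasome inhibitors, and cultures that differ in sensitivity have been used to look for genes that differ between them.

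Depth recovered from the values was 13.7 to 20.0 M reads in the 6 libraries. The cultures carried B-cell and mantle cell genes: across the 6 libraries MS4A1 lay between 194 and 648 CPM (reads scaled to the same library total), PAX5 between 16.1 and 58.8 CPM and CCND1 between 181 and 1752 CPM. The T-cell gene CD3E was listed at 0 in all 6, and CD3D was at most 0.227 CPM. Together 6 T-cell markers summed to between 1.898 and 7.003 CPM per library. The epithelial marker EPCAM lay between 5.77 and 20.8 CPM. Libraries of the BTZ_YM155 pair stood apart from the other pairs. The difference between cultures correlated across genes at r = 0.71 between the BTZ and BTZ_CLF pairs, but at 0.29 and 0.27 between those pairs and BTZ_YM155. These correlations are descriptions, over genes that share the same libraries. The BTZ_YM155 libraries also carry another library name series (MCL in place of HK), and the series and the partner drug cannot be told apart. Mitochondrially encoded genes took 12.8% of MINO-P and 7.06% of MINO-VR in that pair, against 3.23% to 5.91% in the other 4 libraries. A refit without these genes called 385 genes at the threshold given below, against 333 with them in, and 328 were in both. Their part in the results was not otherwise tested.

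Of 12743 genes tested, 333 were called at a Benjamini-Hochberg adjusted p under 0.05 in limma with treatment as a block, or 2.61% of genes. MINO-VR was higher in 197 (1.55%) and lower in 136 (1.07%). All 333 had the same sign in all 3 pairs, which 45.8% of all tested genes had. The difference reached 2-fold in 166 of the higher and 111 of the lower genes. Over all tested genes the median difference, MINO-VR minus MINO-P, was 0.03 on the log2(CPM + 1) scale used throughout for differences. All 3 MINO-VR values lay above all 3 MINO-P values in 12.9% of genes and below them in 10.1%. Called genes are picked from these same values. Where their cultures are said below not to overlap, that is a description and no further support. The calls rest on 3 pairs. Without the BTZ pair 11 of 12390 genes were called, and without the BTZ_CLF pair 13 of 12465. Without the BTZ_YM155 pair 2438 of 12404 were called, which included all 333. With so few calls in the first 2 settings, a short list with none called there says nothing about that list. The values are of bulk RNA, so fewer cells of a kind and less RNA per cell cannot be told apart.

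Without bortezomib, 580 of 13415 genes were called (4.32%), 287 higher in MINO-VR (2.14%) and 293 lower (2.18%). Leaving out the CON, the CLF or the YM155 pair changed that count to 5, 0 or 5488, and the overlap that follows was counted with all pairs in. The lists shared 113 genes, 33.9% of those called under bortezomib and 19.5% of those called without it, and all 113 had the same sign. Of the 333 genes, 327 were tested without bortezomib and 301 of these had the same sign there. Over all 12466 genes tested in both comparisons the differences correlated at r = 0.49. The share of these with the same sign was not counted. The test of whether the difference itself changed with bortezomib, an interaction term over 12 libraries, called none of 13842 genes (0%). Its smallest adjusted p was 0.197, and 1899 genes had an unadjusted p under 0.05. The number called became 839 without the libraries with YM155, 1 without those with no partner drug, and 1126 with array weights. In the fit over all 12 libraries no gene was shown to separate the cultures only under bortezomib.

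PSAT1 had the largest difference of the genes named, and it was lower in MINO-VR. PSAT1 (chr9:78297125-78330094 in hg38) makes phosphoserine aminotransferase, an enzyme of serine synthesis. In the order BTZ, BTZ_CLF and BTZ_YM155, which holds for all values below, MINO-P had 61.3, 69.3 and 21.7 CPM, and MINO-VR had 0.0567, 0.25 and 0 CPM. In reads these were 2553 over the 3 MINO-P libraries and 6 over the 3 MINO-VR libraries. MINO-P was thus 503-fold higher per read sequenced, with an exact 95% interval of 231 to 1370 that covers counting error only. On the log2 scale PSAT1 was -5.40 (SE 0.36, adjusted p 0.0169). Outside these 6 libraries PSAT1 was at most 0.269 CPM in 10 MINO-VR libraries and at least 21.3 CPM in 12 MINO-P libraries, and it was lower in MINO-VR in each of the 6 other treatments that the cultures share. Without bortezomib the difference was -6.83 (adjusted p 0.00507). The other enzymes of the serine path were expressed in both cultures and were not called. PHGDH, which makes the first step, had 82.2, 99.0 and 70.7 CPM in MINO-P and 141, 61.4 and 82.0 CPM in MINO-VR (adjusted p 0.857). PSPH, which makes the last step, differed by 0.50 (SE 0.21, adjusted p 0.218). SHMT2, which converts serine to glycine in mitochondria, differed by 0.68 (SE 0.17, adjusted p 0.0735), with all 3 MINO-VR values above all 3 of MINO-P.

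Several other genes were low or near 0 in MINO-VR under bortezomib and present in MINO-P. GRIK3, a kainate-type glutamate receptor subunit, had 30.9, 18.7 and 9.20 CPM in MINO-P against 1.19, 0.50 and 0.31 CPM (-3.51, SE 0.32, adjusted p 0.0201). Without bortezomib GRIK3 was not near 0 in MINO-VR. It had 14.5, 12.2 and 13.1 CPM there under CON, CLF and YM155, against 99.6, 92.9 and 95.9 CPM in MINO-P. CST3, the secreted protease inhibitor cystatin C, had 477 reads in MINO-P and 6 in MINO-VR, a ratio of 94.0 (exact 95% interval 42.9 to 257). PPP1R9A, an actin-binding regulator of protein phosphatase 1, had 400 and 5 reads, a ratio of 94.6 (40.2 to 293). PTK7, a catalytically inactive receptor kinase of Wnt signalling, had 20.8, 21.3 and 9.05 CPM in MINO-P and 0.34, 0.70 and 1.60 CPM in MINO-VR (-3.23, SE 0.45). These 4 genes were also lower in MINO-VR in each of the 6 other shared treatments, and all 4 were also called without bortezomib. SYT11 (-3.15), NSG1 (-3.11, at 3.70 to 8.32 CPM in MINO-VR), CLIP4 (-2.83), SDC3 (-2.83) and NHSL3 (-2.80) followed, with HRK, described with the apoptosis genes. In each of these 11 genes the cultures did not overlap. MINO-P was lowest in the BTZ_YM155 library in 9 of the 11, the exceptions being CST3 and HRK.

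Among genes higher in MINO-VR, PTPRN2 (chr7:157539056-158587824), a receptor-type phosphatase of secretory vesicles, led. It had 0.177, 0.911 and 10.9 CPM in MINO-P and 21.0, 29.97 and 64.8 CPM in MINO-VR, a difference of 3.57 (SE 0.39, adjusted p 0.0317). MCTP1, a calcium-binding membrane protein, followed with 0.531, 1.02 and 0.657 CPM against 17.5, 12.5 and 15.6 CPM (3.22, SE 0.31, adjusted p 0.0255). AOC1, a copper amine oxidase that degrades histamine and diamines, had 0 reads in all 3 MINO-P libraries and 203, 91 and 73 reads in MINO-VR. With a floor of 3 reads over the 3 MINO-P libraries it was at least 103-fold higher in MINO-VR. IGF2BP1 (3.06), an oncofetal RNA-binding protein, the non-coding WFDC21P (2.97), IL13RA1 (2.90), a receptor chain for interleukin 13, and GBP1 (2.90), an interferon-inducible GTPase, came next. APOL3 (2.86), ANXA2R-OT1 (2.85) and ADCY9 (2.67), an adenylyl cyclase, completed the group with CLEC7A and NCF4, described next. In all 12 the 3 MINO-VR values lay above the 3 of MINO-P, and MINO-P was highest in the BTZ_YM155 library in 9 of them. These genes and the 11 lower ones were chosen by these differences and for 1 sign in all pairs, which makes non-overlap likely. Of these 23 genes, 3 were still called without the BTZ pair, 6 without the BTZ_CLF pair and 23 without the BTZ_YM155 pair, and none changed sign.

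**Figure D1:**
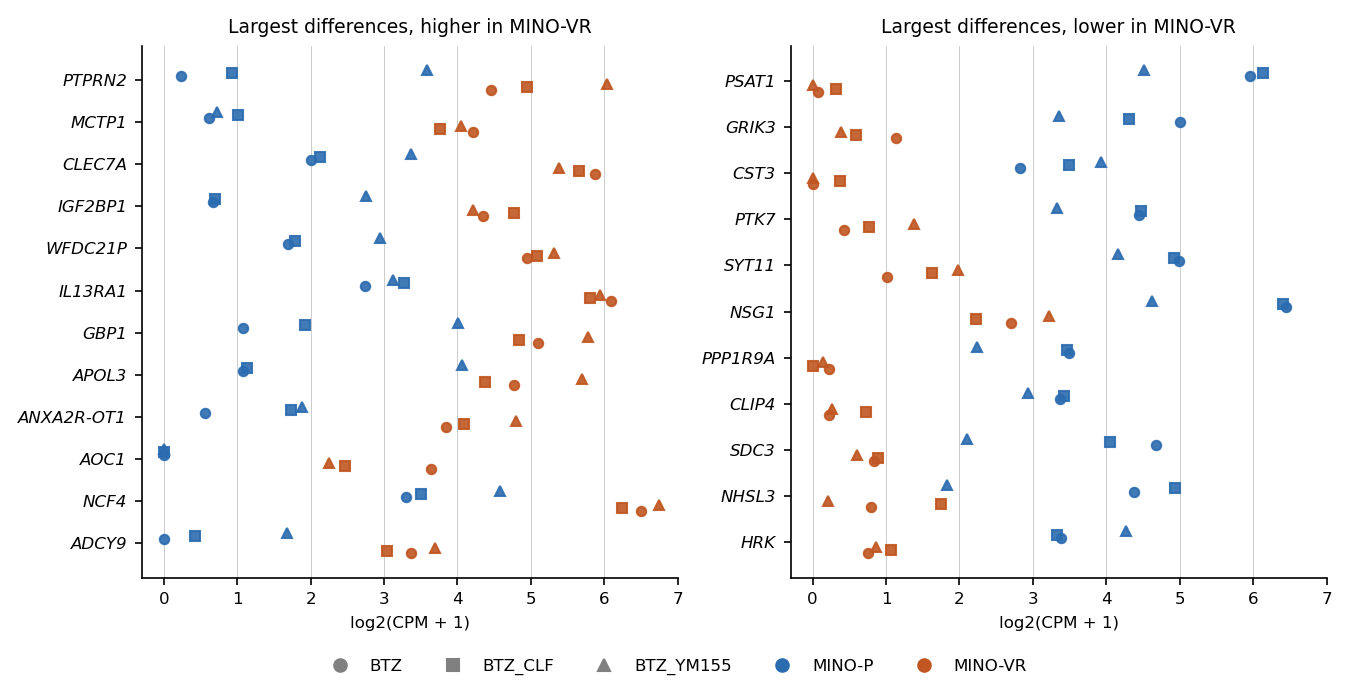
Level of 12 genes with the largest rise and 11 with the largest fall in each of the 6 libraries, as log2(CPM + 1) on the horizontal axis; blue is MINO-P, orange is MINO-VR, and the marker shape gives the treatment. The genes were chosen by their differences in these libraries. The cultures do not overlap in any of the 23 genes, and the BTZ_YM155 library of MINO-P (blue triangle) often lies nearest to MINO-VR.

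Genes better known from myeloid cells were among those higher in MINO-VR. These 9 were picked after their values were seen, so their count supports nothing. CLEC7A, the receptor for fungal beta-glucan, had 3.01, 3.36 and 9.34 CPM in MINO-P and 57.7, 49.3 and 40.7 CPM in MINO-VR (3.14, SE 0.38, adjusted p 0.0324). NCF4, a cytosolic part of the phagocyte NADPH oxidase, differed by 2.70. The inhibitory receptor LAIR1 had 0, 0 and 3.87 CPM in MINO-P and 8.33, 7.84 and 10.4 CPM in MINO-VR (2.53, SE 0.46, adjusted p 0.0472). The signalling adaptor TYROBP differed by 1.56, AIF1 by 1.94, the complement receptor C3AR1 by 2.40, and LY86, a partner of a Toll-like receptor family member, by 1.73. SPI1, which makes PU.1, a transcription factor of myeloid and B cells, had 35.5, 41.6 and 45.4 CPM in MINO-P and 91.7, 72.8 and 93.8 CPM in MINO-VR (1.06, SE 0.18, adjusted p 0.0431). Of the 9, which include IL13RA1, 8 were tested without bortezomib and 4 were called higher there. Defining myeloid markers were low in both cultures: CD14 was at most 2.26 CPM, in MINO-P, and CSF1R at most 0.177 CPM. LYZ, which makes lysozyme, had 8.79, 6.49 and 0.827 CPM in MINO-VR against at most 0.438 CPM in MINO-P. The 5 myeloid markers found in the table summed to 1.95, 2.39 and 6.86 CPM in MINO-P and 11.5, 10.99 and 8.22 CPM in MINO-VR. Their part in these differences was not tested.

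Several immediate early genes, which encode regulators induced quickly by stress and growth signals, were lower in MINO-VR. Of 16 tested, 5 were called lower and none higher, against 1.07% lower over all genes, and 13 were negative. All 3 MINO-VR values lay below all 3 of MINO-P in 9 of the 16, against 10.1% over all genes. The median difference was -0.89. FOS, which forms the AP-1 factor with JUN, had 19.8, 22.3 and 46.4 CPM in MINO-P and 3.57, 6.59 and 3.77 CPM in MINO-VR (-2.37, SE 0.36, adjusted p 0.0384). Its relative FOSB had 11.3, 7.46 and 12.6 CPM against 0.51, 1.00 and 0.775 CPM (-2.68, SE 0.33, adjusted p 0.0324). EGR1, a zinc finger factor, had 9.80, 8.26 and 10.1 CPM against 2.95, 2.45 and 2.38 CPM (-1.53, SE 0.28). KLF2, a factor of lymphocyte quiescence, differed by -1.67 (SE 0.30), and DUSP2, a phosphatase that inactivates MAP kinases, by -1.20 (SE 0.21). JUNB went the other way without a call, with 24.3, 39.7 and 92.3 CPM in MINO-P and 124, 120.3 and 104 CPM in MINO-VR (adjusted p 0.0957). Without the BTZ pair or without the BTZ_CLF pair 0 of the list were called, against 11 of 12390 and 13 of 12465 genes. Without the BTZ_YM155 pair 8 were lower and 1 higher, against 1179 and 1259 of 12404 genes.

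The same list did not differ that way in cells without bortezomib, where its median difference was 0.35. There 3 of 16 were called higher in MINO-VR, against 2.14% over all genes. FOSB had 0.25, 0.192 and 0.463 CPM in MINO-P under CON, CLF and YM155, and 0.562, 1.26 and 6.73 CPM in MINO-VR. The difference between bortezomib and matched libraries was 3.11 for FOSB in MINO-P and -0.78 in MINO-VR, and 3.07 against 0.29 for FOS. Over the list the median of this response was 0.35 in MINO-P and -0.95 in MINO-VR. The interaction was negative for 15 of 16 genes, with an unadjusted p under 0.05 in 9, against 6313 and 1899 of all 13842 genes. None passed adjustment: the interaction of FOSB was -3.90 (SE 0.56, adjusted p 0.197), that of FOS was -2.77 (SE 0.52, adjusted p 0.233) and that of EGR1 was -1.68 (SE 0.46, adjusted p 0.247).

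**Figure D2:**
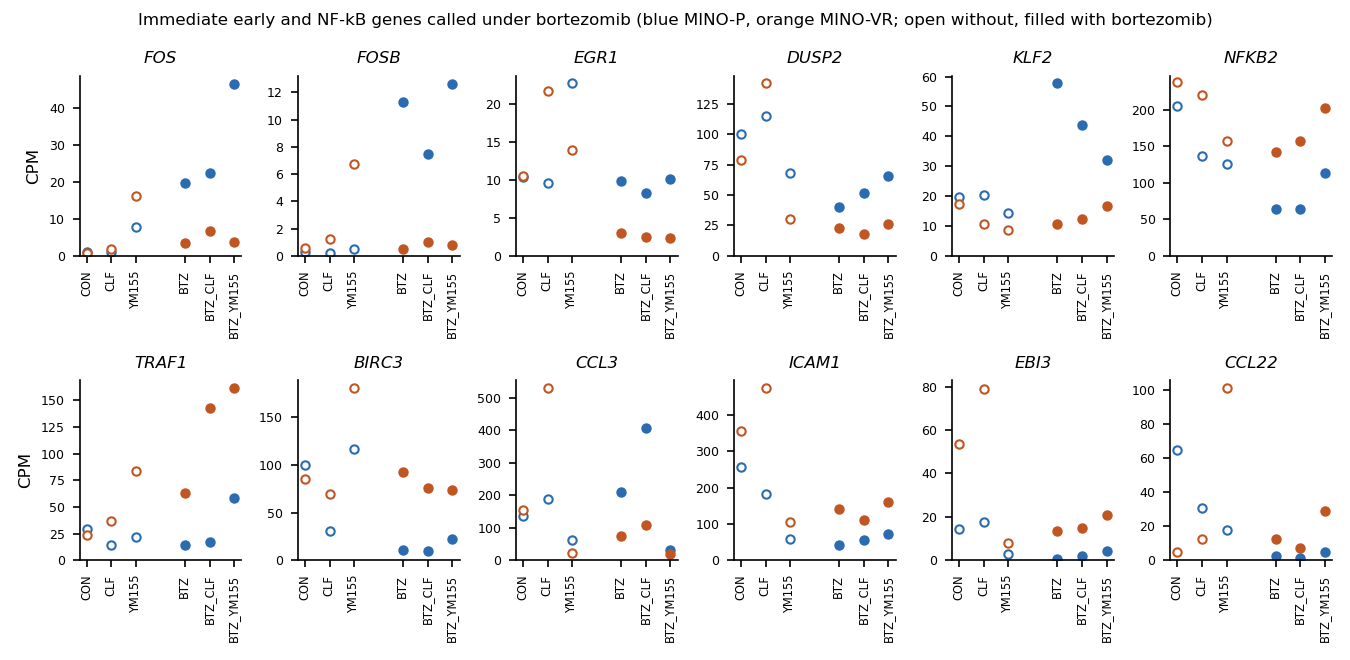
Level in CPM (vertical axis, from 0) of the 12 immediate early and NF-kB genes called under bortezomib, in the matched libraries without bortezomib (open circles) and with it (filled circles); blue is MINO-P and orange is MINO-VR, 1 library per point. With bortezomib FOS, FOSB, EGR1, DUSP2 and KLF2 lie lower in MINO-VR, and NFKB2, TRAF1, BIRC3, ICAM1, EBI3 and CCL22 lie higher, while CCL3 overlaps.

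The unfolded protein response of the endoplasmic reticulum was lower in MINO-VR for some of its targets. Of 20 genes tested 3 were called lower and none higher, against 1.07% and 1.55% over all genes, 16 were negative, and the median difference was -0.45. In 7 of the 20 all MINO-VR values lay below those of MINO-P, against 10.1% over all genes. DNAJB9, a co-chaperone of the reticulum, had 114, 176 and 263 CPM in MINO-P and 54.5, 111 and 93.5 CPM in MINO-VR (-1.06, SE 0.19, adjusted p 0.0472). DNAJB11, another, had 134, 169 and 118 CPM against 67.2, 81.5 and 63.5 CPM (-0.97, SE 0.15, adjusted p 0.0384). HERPUD1, which takes part in degradation of reticulum proteins, had 300.1, 387 and 279 CPM against 180.0, 211 and 155 CPM (-0.82, SE 0.14, adjusted p 0.0431). HSPA5, which makes the central chaperone BiP, overlapped, with 798, 1243 and 3792 CPM in MINO-P and 1389, 2484 and 2319 CPM in MINO-VR (0.36, SE 0.34, adjusted p 0.573). EIF2AK3, which makes the stress kinase PERK and lies outside the list, had 104, 119 and 166 CPM in MINO-P and 42.1, 48.3 and 39.0 CPM in MINO-VR (-1.55, SE 0.21, adjusted p 0.0339). Without bortezomib the median of the list was 0.27 and none was called, and the pairs differed there, with medians of 0.81 (CON), 0.60 (CLF) and -0.51 (YM155). The interaction was negative in 19 of 20 genes, against 6313 of 13842 over all genes. Its unadjusted p was under 0.05 in 5, against 1899 of 13842, and none passed adjustment. For DNAJB9 the interaction was -1.64 (SE 0.47, adjusted p 0.259). Without the BTZ pair or the BTZ_CLF pair none of the list was called, against 11 of 12390 and 13 of 12465 genes. Without the BTZ_YM155 pair 7 were lower and 1 higher, against 1179 and 1259 of 12404 genes.

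Some members of this list carry a known promoter feature, the ER stress response element, which ATF6 and NF-Y bind. The RefSeq promoter table of GRCh38.p14 was searched on both strands in the 250 bases before each start for CCAAT and CCACG separated by 9 letters (the element) and for ATTGG and CCACG separated by 1 letter (its second form). Neither form overlaps the other in the genes shown. The first was in 0.074% of 35116 promoters and the second in 0.0513%, but in 7 and 3 of the 20 list genes. The 10 genes with either form had a median difference of -0.45 and 8 negative values. The other 10 had a median of -0.47 and 8 negative values. The stretch from 130 to 31 bases before the start is shown for HERPUD1, which was called, for PDIA6 and CRELD2, whose MINO-VR values all lay below MINO-P, and for HSPA5, which overlapped. Capitals mark the fixed letters of the element.
HERPUD1 (chr16:56932012-56932111, plus strand): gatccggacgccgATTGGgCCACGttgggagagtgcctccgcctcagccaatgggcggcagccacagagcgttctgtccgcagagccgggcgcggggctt
PDIA6 (chr2:10812816-10812915, minus strand): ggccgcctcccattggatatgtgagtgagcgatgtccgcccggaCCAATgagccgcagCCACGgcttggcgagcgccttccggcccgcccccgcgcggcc
CRELD2 (chr22:49918504-49918603, plus strand): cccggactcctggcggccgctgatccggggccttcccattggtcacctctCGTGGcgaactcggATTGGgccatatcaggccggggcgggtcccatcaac
HSPA5 (chr9:125241374-125241473, minus strand): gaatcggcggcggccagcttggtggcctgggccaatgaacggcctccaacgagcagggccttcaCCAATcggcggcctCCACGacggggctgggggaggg
PDIA6, a disulfide isomerase, had 318, 444 and 641 CPM in MINO-P and 222, 259 and 274 CPM in MINO-VR (-0.84, SE 0.18, adjusted p 0.0600). CRELD2, a secreted stress-induced factor that carries the element in reverse, had 23.0, 27.3 and 21.2 CPM against 13.9, 19.2 and 14.7 CPM (-0.56, SE 0.22, adjusted p 0.190). A match is a description of letters and not a bound site.

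Cytosolic chaperones were mostly at lower levels in MINO-VR without passing the test. In the list of HSP40 proteins, BAG nucleotide exchange factors and small heat shock proteins, 0 of 15 were called, against 2.61% over all genes. All 15 were negative, with a median of -0.64. In 6 of them the MINO-VR values all lay below MINO-P, against 10.1% over all genes. HSPB1, which makes the small heat shock protein HSP27, had 1502, 1813 and 1947 CPM in MINO-P and 471, 1102 and 1372 CPM in MINO-VR (-0.96, SE 0.25, adjusted p 0.0868). BAG3, which links HSP70 to autophagy, had 605, 721 and 848 CPM against 148, 459.7 and 607 CPM (-1.05, SE 0.30, adjusted p 0.105). CHORDC1, a partner of HSP90, differed by -0.79 (SE 0.15, adjusted p 0.0516). Without the BTZ pair 12 of the list were negative and 2 positive.

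Inducible HSP70 genes did not move as one. HSPA6 had 616, 842 and 976 CPM in MINO-P and 72.3, 542 and 465 CPM in MINO-VR (-1.59, SE 0.43, adjusted p 0.0927). HSPA1A was called higher in MINO-VR, with 40.004, 44.7 and 107 CPM against 88.2, 298 and 344 CPM (1.83, SE 0.29, adjusted p 0.0397). Its neighbour HSPA1B is an almost identical copy, so the split of reads between these genes is uncertain. HSPA1B, which held most of their reads, had 5570.3, 7195 and 4153 CPM in MINO-P and 1698, 5959 and 5138 CPM in MINO-VR (adjusted p 0.443). The sum of both was 5610.3, 7240 and 4261 CPM against 1786, 6257 and 5482 CPM. It was lower in MINO-VR in the BTZ and BTZ_CLF pairs and higher in the BTZ_YM155 pair (mean log2 difference -0.50, exact sign-flip permutation p 0.75 over 3 pairs, which cannot go below 0.25). The call for HSPA1A is therefore not a statement about HSP70 as a whole. Of the 11 genes in the HSP70 and HSP110 list, HSPA1A was the 1 called, against 2.61% over all genes.

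**Figure D3:**
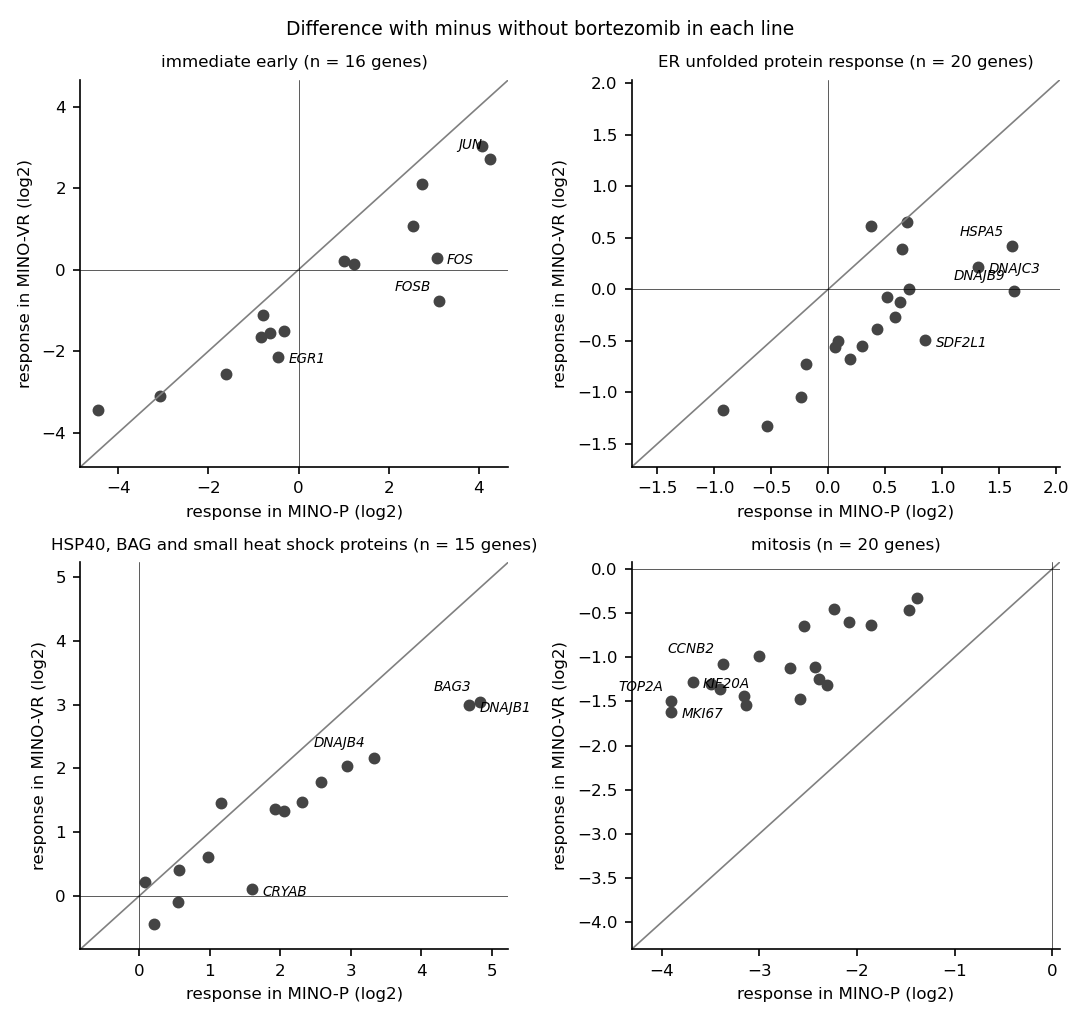
Bortezomib response of each gene in MINO-P (horizontal axis) and MINO-VR (vertical axis), as the log2 difference between the 3 libraries with and the 3 without bortezomib, for 4 gene lists; the diagonal marks equal responses and the 4 genes farthest from it are named. Most immediate early, unfolded protein response and cochaperone genes lie below the diagonal and all 20 mitosis genes lie above it, but no interaction passed adjustment.

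NF-kB genes had the most calls of any list. Of 19, 6 were higher in MINO-VR and 1 lower, against 1.55% and 1.07% over all genes, and the median difference was 0.34. BIRC3, an inhibitor of apoptosis and ubiquitin ligase of the NF-kB pathway (chr11:102317484-102339404), had 11.2, 10.02 and 22.8 CPM in MINO-P and 92.3, 75.8 and 74.2 CPM in MINO-VR (2.47, SE 0.29, adjusted p 0.0324). TRAF1, an adaptor of TNF receptors, had 14.2, 17.5 and 58.8 CPM against 62.7, 143 and 162 CPM (2.16, SE 0.29, adjusted p 0.0339). NFKB2, the precursor of the p52 subunit, had 64.3, 64.2 and 114 CPM against 142, 157 and 202 CPM (1.08, SE 0.16). The adhesion molecule ICAM1 differed by 1.27 (SE 0.19), the cytokine subunit EBI3 by 2.47 (SE 0.32) and the chemokine CCL22 by 2.04 (SE 0.28). In these 6 genes the cultures did not overlap. The chemokine CCL3 went the other way, with 211, 405 and 31.2 CPM in MINO-P and 74.4, 109.7 and 19.6 CPM in MINO-VR (-1.34, SE 0.25, adjusted p 0.0480), and its close copies make that count uncertain. Without bortezomib 1 of the 19 was called, EBI3 (1.69, adjusted p 0.0394), against 4.32% over all genes, and BIRC3 differed by 0.51 (adjusted p 0.276). The response of BIRC3 to bortezomib was -2.30 in MINO-P and -0.35 in MINO-VR, and the interaction was 1.95 (SE 0.44, adjusted p 0.242). None of the list was called without the BTZ or the BTZ_CLF pair, against 11 of 12390 and 13 of 12465 genes. Without the BTZ_YM155 pair 9 were higher and 3 lower, against 1259 and 1179 of 12404 genes.

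Among apoptosis genes, calls were few and went in both directions. HRK, a BH3-only activator of apoptosis, had 9.38, 9.05 and 18.2 CPM in MINO-P and 0.68, 1.10 and 0.827 CPM in MINO-VR (-2.76, SE 0.33, adjusted p 0.0324), and it was also lower in MINO-VR in each of the 6 other shared treatments. PMAIP1, which makes NOXA, had 549, 684 and 450.3 CPM against 350.0, 371 and 205 CPM (-0.89, SE 0.16, adjusted p 0.0472). BMF, another BH3-only gene, was higher, with 22.5, 19.5 and 42.5 CPM against 62.5, 44.6 and 71.7 CPM (1.11, SE 0.20, adjusted p 0.0482). In each of the 3 the cultures did not overlap. BBC3, which makes PUMA, was below MINO-P in every MINO-VR library without a call (adjusted p 0.0698). Of 18 pro-apoptotic genes 2 were called lower and 1 higher, and of 11 anti-apoptotic genes BIRC3 was called higher, against 1.07% lower and 1.55% higher over all genes. BIRC5, the target of YM155, had 7.67, 6.04 and 30.9 CPM in MINO-P and 43.5, 9.79 and 12.5 CPM in MINO-VR, and the cultures overlapped (0.58, SE 0.61, adjusted p 0.617). MCL1 had 260.3, 273 and 204 CPM against 240.2, 264 and 276 CPM (0.09, SE 0.17, adjusted p 0.782).

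Antigen presentation genes lay on the side of MINO-VR, with few calls. All 12 MHC class II genes were positive, with a median of 0.96, and 3 were called higher, against 1.55% over all genes. HLA-DQB1 had 129.7, 137 and 237 CPM in MINO-P and 375, 244 and 592 CPM in MINO-VR (1.22, SE 0.18, adjusted p 0.0368). HLA-DQA1 differed by 1.31 (SE 0.17) and HLA-DRB1 by 1.08 (SE 0.17). In 6 of the 12 all MINO-VR values lay above those of MINO-P, against 12.9% over all genes. All 12 MHC class I genes were also positive, with a median of 0.43, and TAPBP, the tapasin that loads peptides, was called, with 105, 88.3 and 82.7 CPM against 198, 175 and 296 CPM (1.24, SE 0.21, adjusted p 0.0440). Reads of these similar and variable genes can be assigned to the wrong member. Without bortezomib the medians were 0.82 and 0.71, with 3 and 1 called higher, against 2.14% over all genes. Without the BTZ pair or the BTZ_CLF pair none of either list was called, against 11 of 12390 and 13 of 12465 genes.

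B-cell and lymphoma identity genes included calls in both directions. CD79A, the signalling chain of the B-cell receptor, had 147, 180.1 and 133 CPM in MINO-P and 55.6, 25.02 and 63.2 CPM in MINO-VR (-1.75, SE 0.33, adjusted p 0.0487). BTK, the kinase below that receptor, had 116, 109.8 and 86.5 CPM against 283, 204 and 173 CPM (1.06, SE 0.15, adjusted p 0.0368). SOX11, the transcription factor that marks mantle cell lymphoma, had 164, 115 and 67.1 CPM against 39.8, 27.1 and 41.3 CPM (-1.58, SE 0.29, adjusted p 0.0472). BACH2, which holds back plasma cell differentiation, differed by -1.20 (SE 0.22, adjusted p 0.0487). Of the surface antigens, ROR1, a receptor kinase, had 83.9, 78.9 and 75.4 CPM in MINO-P and 23.6, 34.0 and 20.4 CPM in MINO-VR (-1.61, SE 0.20), and CD70 had 54.1, 72.8 and 69.5 CPM against 148, 139 and 160.4 CPM (1.19, SE 0.17). The cultures did not overlap in any of these 6 genes. In the lists of receptor signalling, transcription factors and surface antigens, 7 of 49 genes were called, SPI1 among them, against 2.61% over all genes.

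Proteasome genes held no calls, which at 2.61% called over all genes is near the background for lists of this size: 0 of 14 genes of the 20S core, 0 of 18 of the 19S cap and 0 of 5 of the immunoproteasome, with medians of 0.14, 0.07 and 0.52. At an unadjusted p under 0.05 the counts were 2, 4 and 3, against 23.0% of all genes (2930). The median response of the core to bortezomib was 1.09 in MINO-P and 1.20 in MINO-VR. NRF2 targets (16), MYC and ribosome biogenesis (16), autophagy and lysosome (18), nuclear oxidative phosphorylation (18) and glycolysis and hypoxia (19) also held 0 called genes. In the list of the ATF4 response 1 of 18 was called, PSAT1. PPP1R15A, which restarts translation after stress, had 618, 703 and 951 CPM in MINO-P and 176, 486 and 375 CPM in MINO-VR (-1.23, SE 0.25, adjusted p 0.0549). Single calls in other lists included ABCG1, a cholesterol exporter (2.16, SE 0.34), the HSP90 co-chaperone CDC37 (0.76, SE 0.14), the DNA repair gene XPC (1.15, SE 0.19) and the interferon-stimulated OAS3 (1.54, SE 0.22), each higher in MINO-VR.

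Cell cycle and interferon genes gave values that depended on single pairs, with few or no calls. Of 20 mitosis genes 0 were called under bortezomib, against 2.61% over all genes. All 20 were positive, or 19 under trimmed-mean scaling or with mitochondrial genes left out, with a median of 0.54. This rested on the BTZ pair: without it the median was -0.29 with 8 positive and 12 negative. MKI67, the proliferation marker, had 26.7, 20.2 and 20.2 CPM in MINO-P and 134, 33.0 and 20.7 CPM in MINO-VR (1.00, SE 0.41, adjusted p 0.208). Without bortezomib the list's median was -1.09, with medians of -0.46 in the CON pair, -0.40 in the CLF pair and -2.10 in the YM155 pair, and none was called. The median response was -2.64 in MINO-P and -1.19 in MINO-VR. The interaction was positive in all 20 genes, with an unadjusted p under 0.05 in 9 and none past adjustment. Over all 13842 genes the interaction was positive in 7526, negative in 6313 and under 0.05 unadjusted in 1899. DNA replication genes had an interaction above 0 in 20 of 20, with 12 under 0.05 unadjusted and none past adjustment. Interferon-stimulated genes had a median of 0.27 under bortezomib and 2.35 without it, where 0 of 20 were called. The value without bortezomib came from the CON and CLF pairs, with medians of 3.95 and 3.09, while the YM155 pair had -0.27. For OAS3 these differences were 5.82, 4.37 and -0.24. The interaction of the list was negative in 20 of 20, with 7 under 0.05 unadjusted and none past adjustment.

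**Figure D4:**
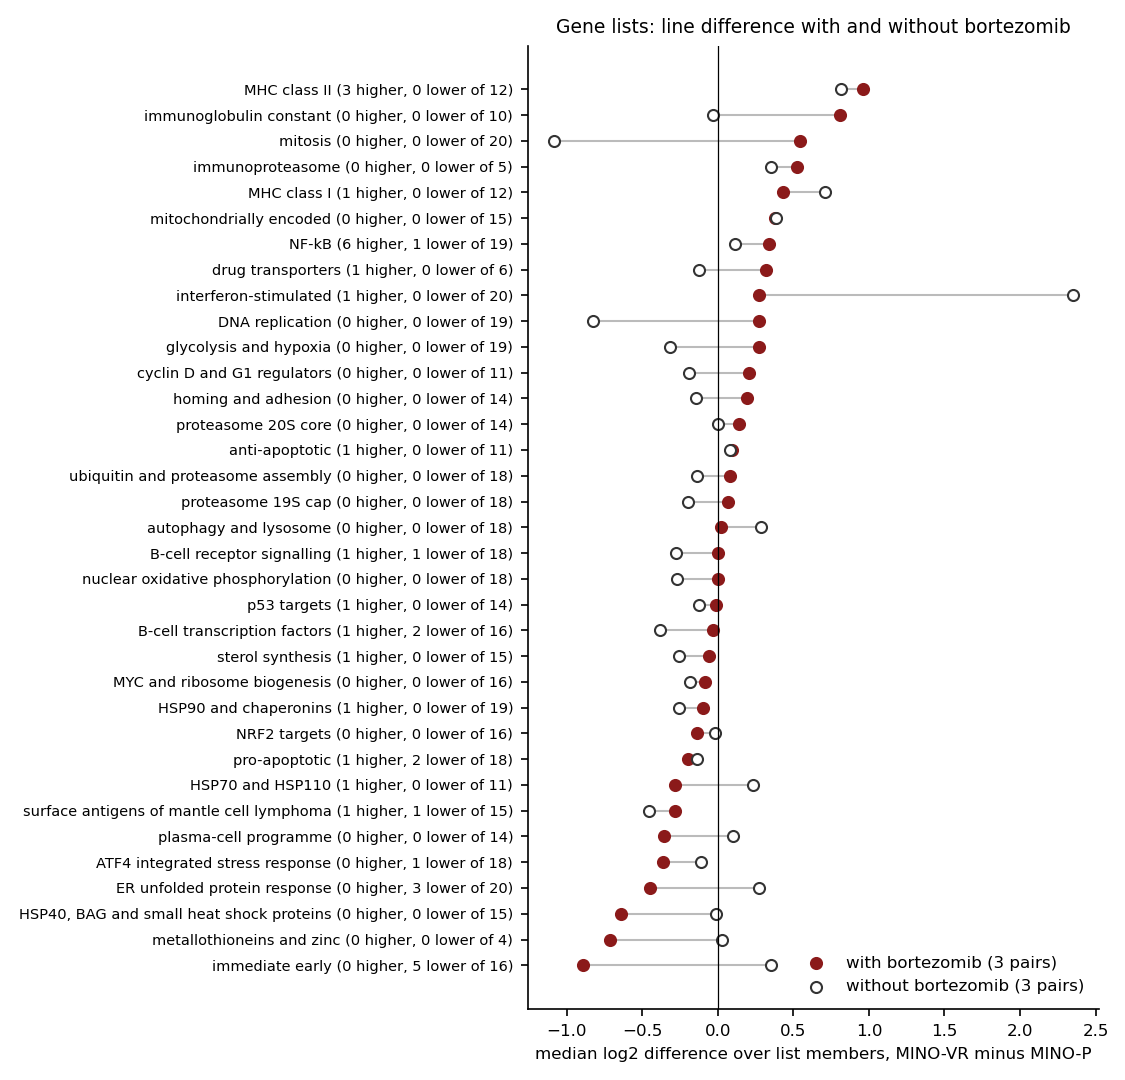
Median log2 difference of each gene list, MINO-VR minus MINO-P, in the 3 pairs with bortezomib (filled) and the 3 without (open), for lists with at least 4 tested genes; the counts in brackets are the genes called higher or lower with bortezomib. Immediate early genes lie lowest with bortezomib at -0.89 and MHC class II highest at 0.96.

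Differences between the cultures were unevenly spread over the chromosomes. On chromosome 9, 40 of 511 genes were called higher and 3 lower (8.41% called, against 2.61% over all), and the median was 0.39 with bortezomib and 0.38 without. Most lay at 110 to 140 Mb, where 40 of 255 genes were higher and 1 was lower, and 236 of 255 were positive. Chromosome 19 split. At 0 to 20 Mb 26 of 393 genes were higher and 1, KLF2, was lower (6.87% called). The median was 0.43 with bortezomib and 0.39 without. At 30 to 60 Mb 3 of 464 were higher and 18 lower (4.53% called). The median was -0.43 with bortezomib and -0.19 without. By pair it was -0.64 (BTZ), -0.54 (BTZ_CLF) and -0.19 (BTZ_YM155). Chromosome 2 had a median of -0.29 with bortezomib and -0.38 without, with 3 higher and 16 lower of 831 under bortezomib. Its share called, 2.29%, was near the 2.61% over all genes. These spans were drawn after the values were seen. Several genes named above lie in these spans. They include CD79A, FOSB and PPP1R15A on chromosome 19 at 30 to 60 Mb. EBI3, CD70 and CDC37 lie on chromosome 19 at 0 to 20 Mb, and TRAF1 and HSPA5 in the span of chromosome 9. Gene copy number was not measured.

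On chromosome 22 at 35 to 40 Mb, 15 of 69 genes were called higher (21.7%) and 0 lower. The span holds APOL1, APOL2, APOL3 and APOL6, which encode apolipoprotein L proteins and are neighbours, and also NCF4, CSF2RB, RAC2, TST, MFNG and LGALS1. APOL1 had 34.2, 34.8 and 64.3 CPM in MINO-P and 179, 206 and 274 CPM in MINO-VR (2.32, SE 0.16, adjusted p 0.0169). APOL6 differed by 2.53 (SE 0.22, adjusted p 0.0201), TST, a mitochondrial sulfurtransferase, by 2.01 (SE 0.28), and LGALS1, a galectin, by 1.52 (SE 0.15). All 15 called genes lay in the stretch from APOL6 to LGALS1, and all 15 were also positive without bortezomib. From LGALS1 to the end of the span no further gene was called. Across the whole span the median difference was 0.50 with bortezomib and 0.00 without. Without it 13 of 67 genes were called higher and 2 lower, against 2.14% and 2.18% over all genes. The median interaction was 0.14. These medians depend on the ends of the span, which were drawn after the values were seen. Over the whole span 42 of the 69 genes were positive.

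**Figure D5:**
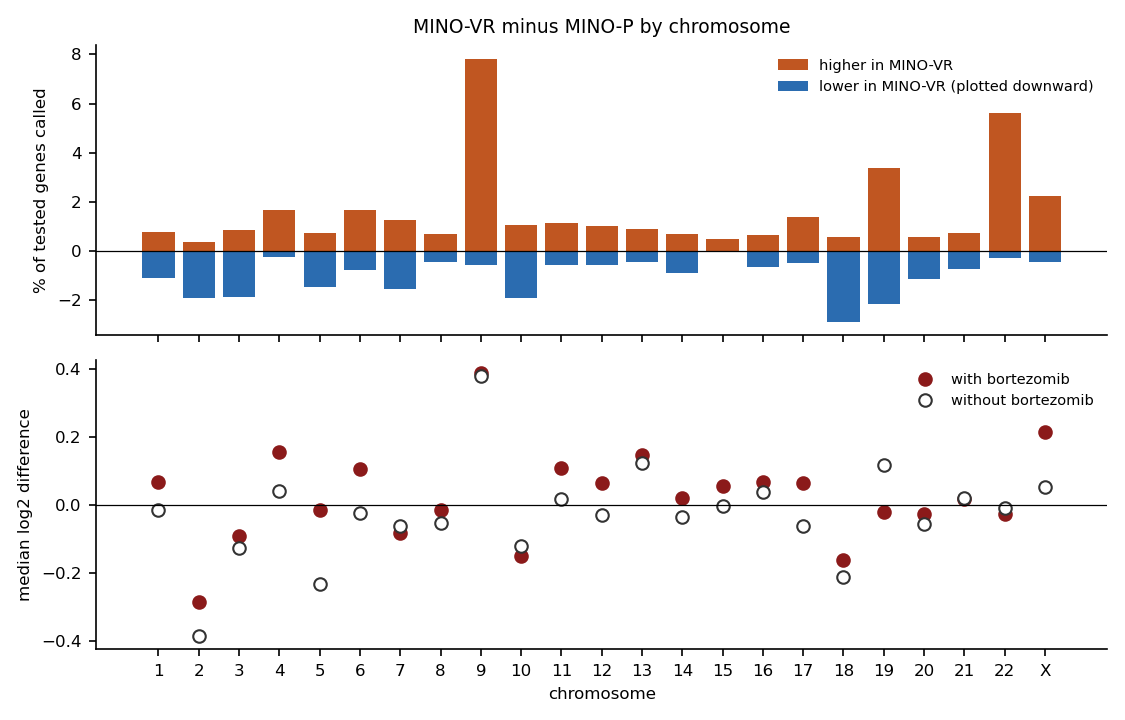
Upper panel: share of tested genes on each chromosome called higher (orange, upward) or lower (blue, downward) in MINO-VR with bortezomib, in percent. Lower panel: median log2 difference on each chromosome with (filled) and without (open) bortezomib; chromosome 9 has the highest median, 0.39 and 0.38.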

How the data were processed

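RNA-seq of poly-A RNA was deposited by the authors as 1 table of log2 values, log2(CPM + 1), where CPM are reads scaled to the same library total, for 21595 named genes and 1 entry without a name. Partek and hg38 are named in the submitters' processing notes, and aligner, counter, annotation and strand use are not given in the sources used here. That entry was dropped. The 6 libraries were fitted with limma (version 3.58.1 in R 4.3.3, intensity trend) with treatment as block, after removing genes that reached 1 CPM in fewer than 2 libraries. A count test had been planned and was replaced because the values are not counts. Adjusted p-values are Benjamini-Hochberg over all genes tested, with a threshold of 0.05. With 1 library per culture and treatment, they hold no spread between replicate libraries. They combine the spread between 3 pairs (2 residual degrees of freedom) with a variance trend taken over all genes tested (4.74 prior degrees of freedom). The pseudocount of 1 CPM understates changes of low genes. The scripts were tested on simulated data.

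Reads were recovered from the step between low values: 84% to 86% of low values were whole within 0.05 reads. Genes named are the 12 largest called differences in each direction with a mean of at least 1 CPM and 1 sign in all pairs, BIRC5, MCL1, and up to 4 members of each list by p, and others were named after their values were seen. Some genes the rule names are not reported here. The comparison and the lists were chosen with earlier results of these data known. Other filters, pseudocounts, scalings, variance models and left-out pairs were tried.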

Additional observations from a re-analysis of the deposited data

Results flagged for a closer look

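In 7 genes named above or noted here, MINO-VR was below MINO-P in all 3 pairs with bortezomib and above it in all 3 without, or the reverse. The pattern is not particular to these 7, since other genes such as CHKA and FLNC also had it. Its share over all genes was not counted. The interaction, the change in the difference between the cultures, was -4.42 for HSPA6, -3.90 for FOSB, -2.09 for PPP1R15A, -1.79 for BAG3, -1.65 for EMP3 and -1.48 for KLF6. For MKI67 it was 2.29, the reverse pattern, with nearly equal values in the BTZ_YM155 pair. None of these passed adjustment in limma over 13842 genes: the adjusted p was 0.197 to 0.276. HSPA6 had 0.0722, 0.206 and 1.42 CPM in MINO-P under CON, CLF and YM155 against 0.375, 18.8 and 39.8 CPM in MINO-VR. EMP3, a membrane protein that was chosen after its values were seen, had the smallest unadjusted interaction p, 1.67e-05. It had 139, 150.3 and 213 CPM in MINO-P with bortezomib against 89.8, 87.7 and 114 CPM in MINO-VR. Without bortezomib it had 24.9, 33.1 and 57.7 CPM against 45.5, 70.5 and 97.3 CPM.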

How the results depend on the processing

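The number of genes called under bortezomib depended on the fit. It was 333, and became 68 without the treatment block, 1190 in the 12-library fit, 205 with at least 10 reads in every library, 2631 with array weights, and 0 without the filter or without the intensity trend (smallest adjusted p 0.139 and 0.0554, where an unadjusted p under 0.05 held for 3101 and 2766 genes). Leaving out a pair gave 11 to 2438. It stayed within 1.5 times with all MINO libraries (428), a pseudocount of 0.25 CPM (324), mitochondrial genes left out (385) and trimmed-mean factors (313). The interaction count of 0 became 1126 with array weights, and 0 to 839 with a partner drug left out. The count of 580 without bortezomib became 0 to 5488 with a pair left out. Array weights reversed MCL1 (-0.0206) and PHGDH (-0.173). With a pair left out the difference ran from -0.0814 to 0.194 for MCL1 (reversed without BTZ_YM155), and, reversed without BTZ, from -0.314 to 1.49 for BIRC5, from -0.235 to 0.492 for PHGDH and from -0.993 to 0.0176 for HSPA1B. Over 95 genes and their alternatives, 804 values kept direction and side of the threshold, 360 lost the call, 48 gained it and 6 reversed; the causes were not tested. With 2 pairs left, 1 residual degree of freedom remains. No paired analysis by replicate number was possible because the labels give none, and treatment is the block.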
